A study of Mus musculus with 6 samples.

Results

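The transcripts described here encode the enzymes that add a phosphate to, or remove it from, the alpha subunit of eukaryotic initiation factor 2 (eIF2alpha), that subunit itself and the mitochondrial protease OMA1. They were taken as the rows of the deposited table that carry 8 gene names, Eif2ak1, Eif2ak2, Eif2ak3, Eif2ak4, Ppp1r15a, Ppp1r15b, Eif2s1 and Oma1, out of 54532 genes in all. RNA was sequenced from the hearts of 6 mice homozygous for loxP-flanked Mrps5, the gene of a protein of the small mitochondrial ribosomal subunit. All 6 received tamoxifen by intraperitoneal injection at 45 mg per kg per day on 5 days from 8 weeks of age, and the hearts were collected 12 weeks afterwards. The 3 controls (Ctrl) were Mrps5 fl/fl without MCM, and the 3 conditional knockouts (cKO) were Mrps5 fl/fl; MCM, where MCM is a MerCreMer recombinase driven by the cardiomyocyte promoter αMHC. Since tamoxifen-activated Cre was present in cKO hearts alone, its own effects and those of Mrps5 loss cannot be told apart here.

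Cells slow the start of protein synthesis by phosphorylating eIF2alpha, the subunit of the factor that brings the initiator tRNA to the ribosome. Each of the 4 kinases answers to a different signal: HRI (Eif2ak1) to heme shortage and to a mitochondrial signal that OMA1 starts by cleaving a relay protein, PKR (Eif2ak2) to double-stranded RNA, PERK (Eif2ak3) to unfolded proteins in the endoplasmic reticulum, and GCN2 (Eif2ak4) to uncharged tRNA and stalled ribosomes. Phosphorylated eIF2alpha blocks its own exchange factor eIF2B and favours translation of the transcription factor ATF4, and protein phosphatase 1 removes the phosphate when guided by GADD34 (Ppp1r15a), which stress induces, or by CReP (Ppp1r15b), which is made constitutively.

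The residue on which all 4 kinases act is serine 51 of eIF2alpha, so the codon for it is shown first, in capitals within 27 bases of exon 2 of 8 of Eif2s1 (GRCm38, chr12:78866668-78866694, plus strand, from the GENCODE transcript).
Eif2s1: cttagtgaattaTCCagacgacgtatc
Serine 51 is counted without the initiator methionine, which makes it codon 52 of the reading frame. RNA abundance, which is what follows, says nothing of whether this serine carried a phosphate.

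Depth ranged from 15989322 to 24875499 reads per heart, worked back from the deposited FPKM (fragments per kilobase of gene length, corrected for library size). The library size that the FPKM imply was not this total. It was 0.980, 0.913 and 0.972 times the total in Ctrl replicates 1, 2 and 3 and 1.059, 1.062 and 1.059 times in cKO. Relative to scaling by read totals, this sets cKO values lower against Ctrl, and its part in the results was not tested. Mrps5 averaged 5.99 ± 0.69 FPKM in Ctrl and 1.22 ± 0.095 FPKM in cKO hearts (SD, n = 3 per group), and the groups did not overlap. Of 8 cardiomyocyte markers all were detected in every heart and 5 were lower in cKO, with a summed level of 14688 to 18639 FPKM in Ctrl and 8974 to 15782 FPKM in cKO. Of 5 endothelial markers 3 were lower, with a summed level of 118.8 to 136.1 FPKM in Ctrl and 79.1 to 94.5 FPKM in cKO. In bulk tissue fewer cells of a type and less RNA per cell cannot be told apart. The summed level of 5 atrial markers varied widely within each group, from 127.8 to 2054 FPKM in Ctrl and from 575 to 1675 FPKM in cKO, highest in Ctrl replicate 1 and cKO replicate 3, although the study's methods describe ventricular tissue. Xist was expressed and no read of 4 Y-linked genes was found in cKO replicate 2, the reverse of the other 5 hearts and of the study's statement that the mice were male. Without cKO replicate 2, 6 cardiomyocyte and 5 endothelial markers were lower, and without the heart highest in the atrial light chain gene Myl7 in each group 3 and 3 were. The part of these differences in the results was not tested.

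All 8 genes passed the filter of a mean of 0.5 FPKM. In the test 3 of them were called: Ppp1r15a and Eif2s1 higher and Oma1 lower (limma on log2(FPKM + 1), adjusted p below 0.05). Oma1 was at the threshold, with an adjusted p of 0.0499 by limma, and its call was kept in 2 of 15 alternative fits. The 3 called genes are 37.5% of the 8, against 33.3% of all 12944 genes tested. Of all tested genes 16.3% were called higher and 17.0% lower, so the share of called genes was close to the background. The same 33.3% is the background for the counts of called genes in every list of this report in the main fit. Fits without some hearts called fewer of the 12944 genes: 1993 higher and 2006 lower without cKO replicate 2. Without the heart highest in Myl7 in each group the numbers were 994 and 1024. List counts from those fits are to be read beside these numbers. The groups did not overlap for the 3 called genes, whereas 51.2% of all tested genes did not overlap. The median log2 fold change of the 8 was 0.12, against -0.02 over all tested genes. With each library rescaled to its total without genes of the mitochondrial DNA, 2649 genes were called higher and 1621 lower in place of 2110 and 2205.

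**Figure D1:**
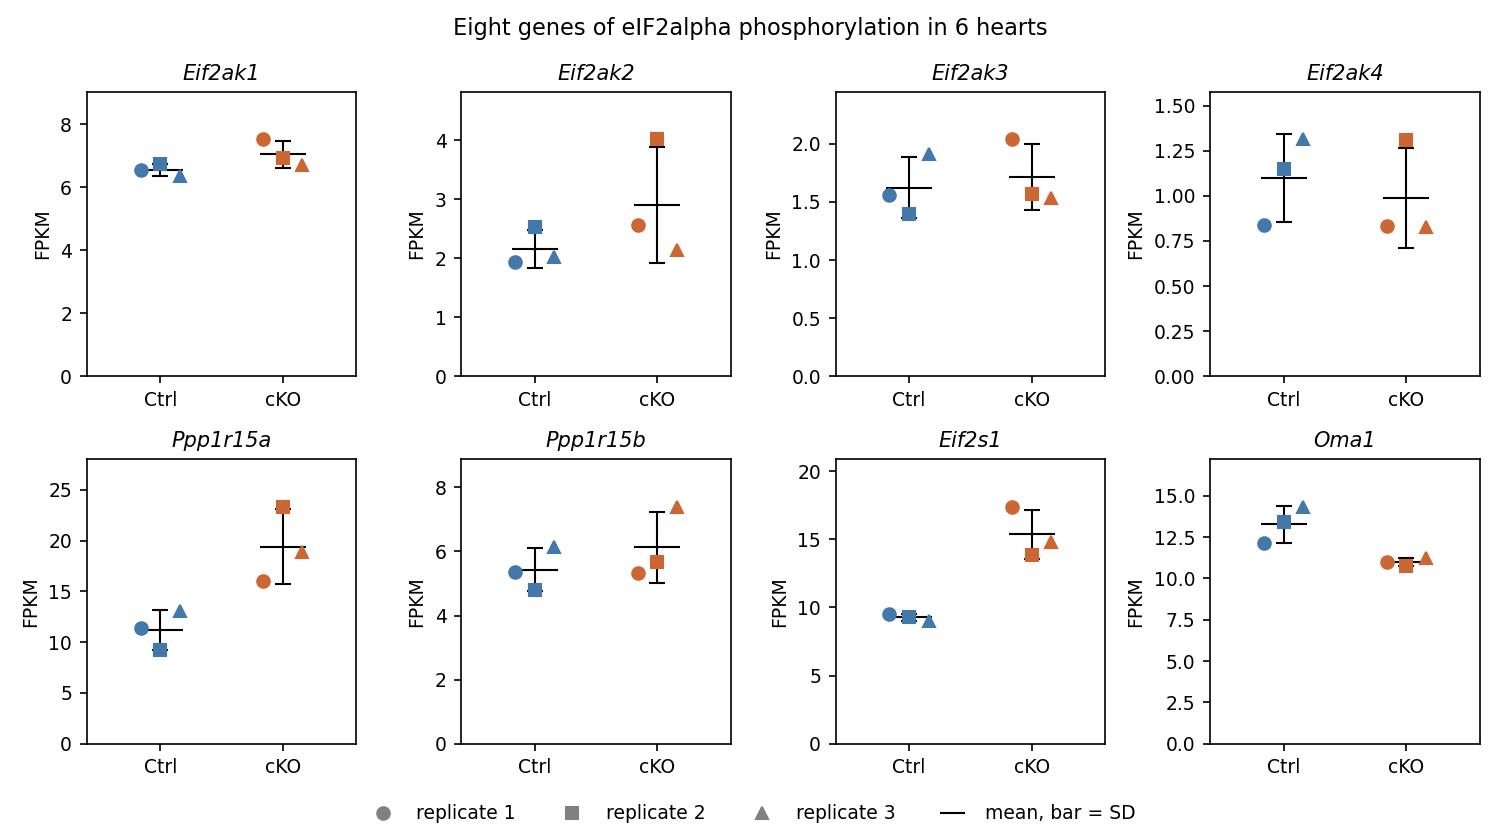
Each panel shows 1 gene, with FPKM on a linear axis that starts at 0 and 1 point per heart, shaped by replicate number. The horizontal bar is the group mean and the whiskers the SD. Ppp1r15a and Eif2s1 lie higher, and Oma1 lower, in all 3 cKO hearts than in any Ctrl heart, and the 5 other genes overlap.

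None of the 4 kinase transcripts passed the test (limma, with 0 of 4 at an unadjusted p under 0.05 and 0 of 4 called by voom on the recovered reads). Eif2ak1, the kinase HRI, was the most abundant of them per gene length, with 6.54, 6.73 and 6.35 FPKM in the controls and 7.52, 6.92 and 6.71 FPKM in the knockouts, always given here in the order of replicates 1, 2 and 3. The cKO values lay high but cKO replicate 3 lay just below Ctrl replicate 2. The order of these close values depends on library scaling. The library sizes that the FPKM imply set cKO lower against Ctrl than read totals would. No kinase was tested with read totals, and scaling without mitochondrial DNA genes gave Eif2ak1 a log2 fold change of 0.17 (adjusted p = 0.125 by limma). The log2 fold change was 0.09 (95% confidence interval -0.08 to 0.26, adjusted p = 0.350 by limma), so an increase of the size seen for Eif2s1 lay outside the interval. Eif2ak1 lies at chr5:143817788-143904251 on the plus strand and shares 487 exonic bases with Aimp2 on the other strand, a gene of the tRNA synthetase complex that averaged 8.32 ± 0.25 FPKM in Ctrl and 13.3 ± 1.36 FPKM in cKO and rose (log2 fold change 0.61, adjusted p = 0.00338). Whether reads in that overlap were counted by strand was not stated, so the value of Eif2ak1 is uncertain to that extent.

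Erythroid cells are rich in HRI, so blood left in the tissue was measured beside it. The summed level of 4 erythroid genes (Hba-a1, Hbb-bs, Hbb-bt and Alas2) ranged from 789 to 1930 FPKM in Ctrl and from 538 to 1431 FPKM in cKO hearts, and 0 of the 4 passed the test (0 at an unadjusted p under 0.05 and 0 by voom), whereas without the heart highest in Myl7 in each group all 4 were called lower, with a median log2 fold change of -1.50. Reads of the near-identical globin genes may be shared between them. The 6 values of Eif2ak1 spread from 6.35 to 7.52 FPKM, with a coefficient of variation of 2.93% in Ctrl and 5.99% in cKO hearts, against 3.56% and 3.40% for counting alone. The part of blood in these values was not tested.

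Eif2ak2, which encodes PKR and is itself induced by interferon, measured 1.93, 2.53 and 2.01 FPKM in the controls and 2.55, 4.01 and 2.15 FPKM in the knockouts. Only cKO replicate 2 stood clearly above the Ctrl hearts, from 479 reads. The log2 fold change was 0.28 (95% confidence interval -0.14 to 0.70, adjusted p = 0.260), and 0.09 without cKO replicate 2 (adjusted p = 0.591).

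That heart was also the highest of the 6 for 12 of 12 interferon-stimulated genes, whereas 18.4% of all tested genes were highest there. Irf7, the transcription factor that amplifies the interferon response, was at 32.2 FPKM in cKO replicate 2 and between 1.55 and 2.85 FPKM in the other 5 hearts. Isg15, a ubiquitin-like modifier, was at 14.05 FPKM against 3.67 to 6.12 FPKM, and Ifit1, which binds foreign RNA, at 6.10 FPKM against 0.979 to 1.52 FPKM. Across the 12 genes the level in cKO replicate 2 was 1.498 to 13.2 times the median of the other hearts, with a median of 2.93, and that of Eif2ak2 was 1.87 times. Adar, the RNA-editing enzyme that keeps PKR from self RNA, was also highest in that heart, at 2.495 FPKM against 1.41 to 1.87 FPKM.

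Between the groups, 0 of the 11 tested interferon-stimulated genes passed the test (limma, 0 at an unadjusted p under 0.05 and 0 by voom). Without cKO replicate 2 the median log2 fold change of these 11 genes was -0.26, and 3 of them were lower in cKO: Irf7 (-0.42, adjusted p = 0.0246), Ifit3 (-0.53, adjusted p = 0.0192) and Usp18 (-0.34, adjusted p = 0.0391). In the other 2 cKO hearts Eif2ak2 averaged 2.35 FPKM, beside 2.16 FPKM in Ctrl. This heart is the one that differed in Xist and Y-linked expression, and sex, the interferon-stimulated genes and any other property of it cannot be told apart with 1 animal.

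**Figure D2:**
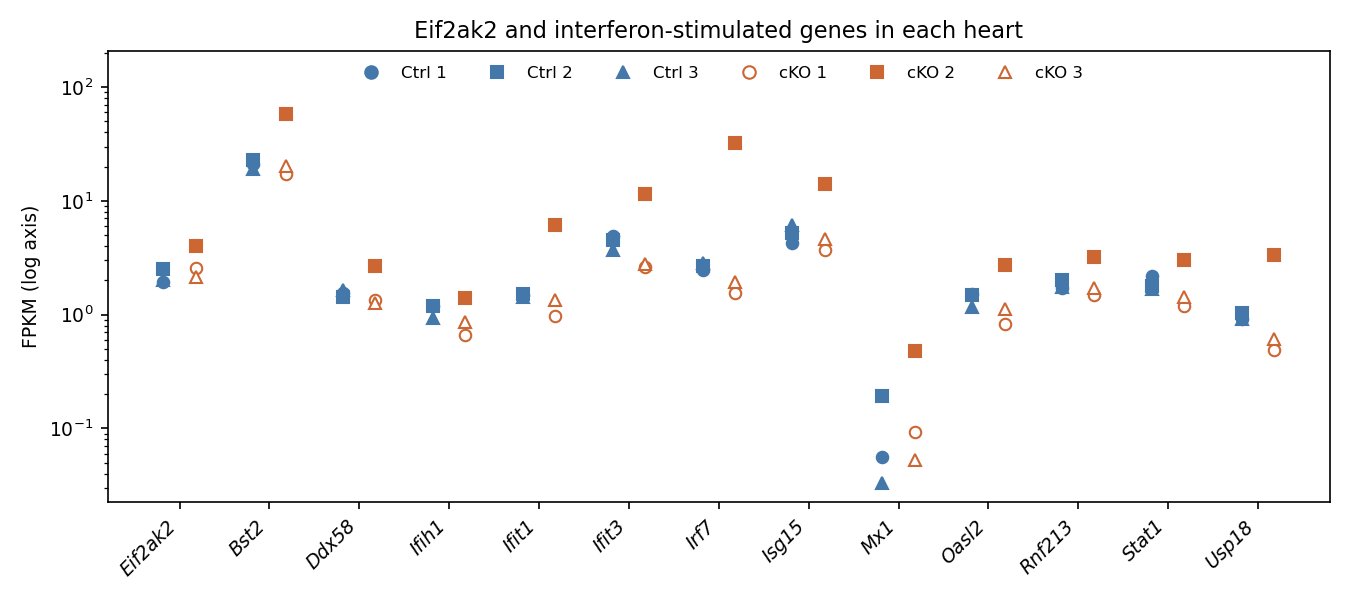
FPKM of Eif2ak2 and 12 interferon-stimulated genes in each heart, on a log axis, with Ctrl hearts in blue and cKO hearts in orange. The filled orange square, cKO replicate 2, is the highest point for every gene, at 4.01 FPKM for Eif2ak2 and 32.2 FPKM for Irf7.

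A stretch of the Eif2ak2 promoter is shown because of this pattern. RefSeq promoter windows of 300 bases (GRCm38.p6, from 250 bases before the start site to 50 after it) were matched by symbol for 7 of the 8 genes, and searched on both strands for the core of the interferon-stimulated response element, GAAANNGAAA. It was found in the windows of Eif2ak2, Ppp1r15a and Eif2s1, and in 3.44% of all 32851 windows. In Eif2ak2 it begins 18 bases after the start site, in capitals in these 30 bases (chr17:78882535-78882564, minus strand).
Eif2ak2: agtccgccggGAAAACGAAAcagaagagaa
The match is a match of letters and not evidence that a factor was bound there.

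Eif2ak3, the endoplasmic reticulum kinase PERK, measured 1.56, 1.40 and 1.91 FPKM in the controls and 2.04, 1.57 and 1.54 FPKM in the knockouts. The groups overlapped almost entirely, and the log2 fold change was 0.05 (95% confidence interval -0.21 to 0.31, adjusted p = 0.759). The direction was not stable, since the value was -0.01 without Ctrl replicate 2 and -0.03 without cKO replicate 1. Of 12 chaperones and sensors of the endoplasmic reticulum, 4 rose (Sdf2l1, Creld2, Xbp1 and Hyou1, log2 fold changes 0.74, 0.63, 0.51 and 0.36, the last lost in 6 of 15 alternative fits), 1 fell and 7 did not pass. The one that fell was Herpud1, a component of endoplasmic-reticulum-associated degradation, with 153.5, 193.3 and 234.4 FPKM in the controls and 64.9, 52.8 and 96.9 FPKM in the knockouts (log2 fold change -1.45, adjusted p = 0.00575). Hspa5, the abundant chaperone BiP that holds PERK inactive, had a log2 fold change of -0.11 (adjusted p = 0.584). Beside the counts of this list, 16.3% of all tested genes were called higher and 17.0% lower. Without the heart highest in Myl7 in each group, 1 of the 12 was called higher and 1 lower.

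Eif2ak4, the amino acid sensor GCN2, was the least abundant kinase, with 0.837, 1.15 and 1.31 FPKM in the controls and 0.832, 1.31 and 0.826 FPKM in the knockouts, from 105 to 237 reads. No order between the groups was visible, and the log2 fold change was -0.08 (95% confidence interval -0.40 to 0.24, adjusted p = 0.673). Among 8 cofactors and inhibitors of the kinases, Tarbp2, which binds double-stranded RNA and inhibits PKR, rose (log2 fold change 0.58, adjusted p = 0.00616). Nck1, an adaptor that brings phosphatase to eIF2alpha, fell (-0.25, adjusted p = 0.0378, and 0.0605 without cKO replicate 2), a call lost in 10 of 15 alternative fits. The other 6 did not pass, among them Gcn1l1, the ribosome-bound activator of GCN2, at 0.16 (adjusted p = 0.107). That is 1 of 8 called higher and 1 lower, beside 16.3% and 17.0% of all tested genes. Without the heart highest in Myl7 in each group, 1 of the 8 was called higher and 0 lower.

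Per gene length the order Eif2ak1, Eif2ak2, Eif2ak3, Eif2ak4 held in each of the 6 hearts. The step from Eif2ak1 to Eif2ak2 was 1.72-fold to 3.39-fold, and the smallest step was 1.05-fold, between Eif2ak2 and Eif2ak3 in Ctrl replicate 3. Counted as reads per base of the longest coding transcript, this smallest step was reversed, with Eif2ak3 at 16.9% and Eif2ak2 at 15.8% of the kinase sum. Eif2ak1 made up 57.3 ± 2.72% of the summed FPKM of the 4 kinases in Ctrl and 56.0 ± 5.19% in cKO, and Eif2ak2 made up 18.8 ± 2.24% and 22.6 ± 5.57% (SD, n = 3 hearts per group). Eif2ak3 took 14.2 ± 2.34% and 13.6 ± 2.19%, and Eif2ak4 took 9.59 ± 1.82% and 7.76 ± 1.57%. The difference in the share of Eif2ak2, 3.78 percentage points, was 0.58 without cKO replicate 2. Groups overlapped for all 4 shares, with p = 0.8, 0.4, 0.7 and 0.2 for Eif2ak1 to Eif2ak4 in an exact two-sided permutation test over hearts, and 0.8, 0.6, 0.8 and 0.4 after adjustment over the 6 within-heart measures tested. With 3 hearts against 3 such a test cannot go below 0.1.

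The summed kinase FPKM was 11.4 ± 0.49 in Ctrl and 12.7 ± 1.32 in cKO. Set against the substrate transcript, it was 1.14, 1.27 and 1.29 times the FPKM of Eif2s1 in Ctrl replicates 1, 2 and 3 and 0.745, 0.995 and 0.758 times in cKO replicates 1, 2 and 3. Every Ctrl heart thus had more kinase than substrate RNA per gene length and cKO replicates 1 and 3 less, while in cKO replicate 2 they were nearly equal. Which side of 1 a heart falls on depends on the length used. Per base of the longest coding transcript, the log2 ratio was 0.025 in Ctrl replicate 1 and -0.18 in cKO replicate 2. The log2 ratio differed by -0.58 between the groups (exact permutation p = 0.1, the smallest the design allows, and 0.3 after adjustment).

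**Figure D3:**
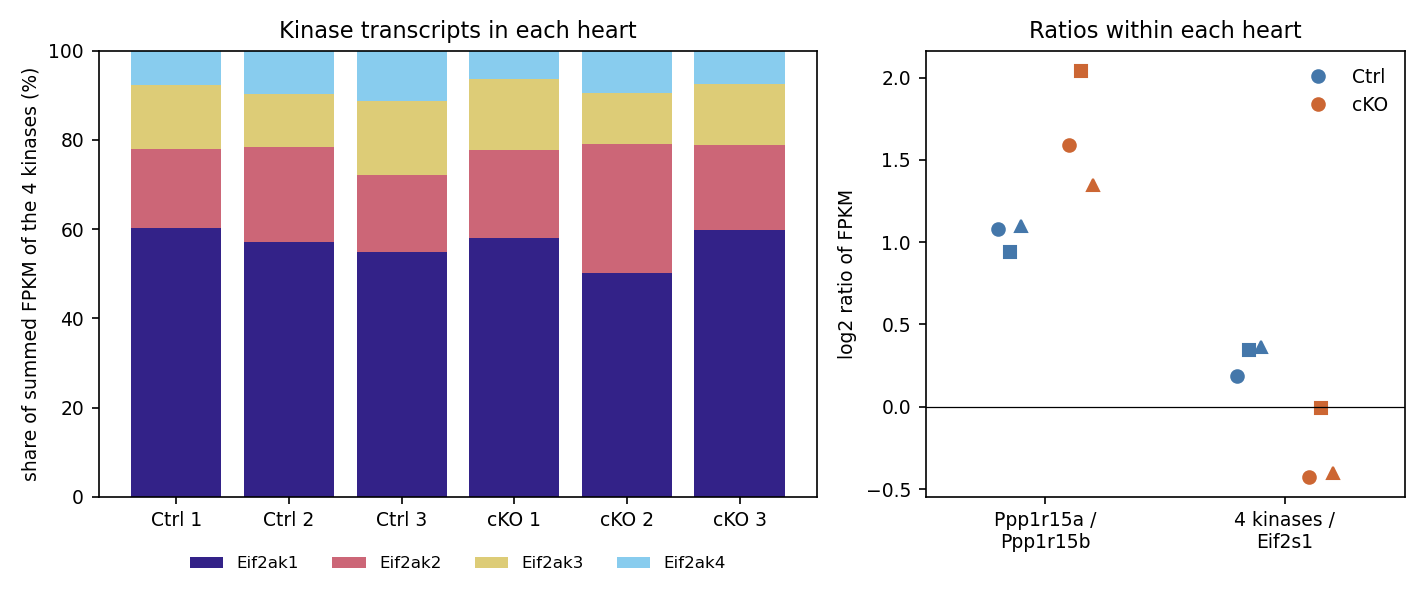
Left, the share of each kinase in the summed FPKM of the 4 kinases (percent), 1 stacked bar per heart: Eif2ak1 takes 50.1% to 60.2%. Right, log2 ratios of FPKM within each heart, with Ctrl in blue and cKO in orange and replicates 1, 2 and 3 as circle, square and triangle: the cKO points lie above the Ctrl points for Ppp1r15a to Ppp1r15b and below them for the kinases to Eif2s1.

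Ppp1r15a, the inducible phosphatase subunit GADD34, measured 11.4, 9.22 and 13.1 FPKM in the controls and 16.1, 23.3 and 18.8 FPKM in the knockouts. All 3 cKO hearts were above all Ctrl hearts. Its level rose 1.73-fold, from 11.2 ± 1.95 to 19.4 ± 3.67 FPKM, and on the log2 scale the difference was 0.74 (SE 0.16, adjusted p = 0.0152). The call held in 14 of 15 alternative fits, among them those without each single heart (adjusted p between 0.0168 and 0.0477), and was lost when the heart with the most atrial Myl7 was left out of both groups (log2 fold change 0.76, adjusted p = 0.0947), a fit on 2 hearts per group.

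Ppp1r15b, the constitutive subunit CReP, measured 5.37, 4.80 and 6.13 FPKM in the controls and 5.32, 5.67 and 7.39 FPKM in the knockouts. The ranges overlapped, and the log2 fold change was 0.14 (95% confidence interval -0.17 to 0.45, adjusted p = 0.438). Within each heart Ppp1r15a exceeded Ppp1r15b by 2.11, 1.92 and 2.14 times in Ctrl and by 3.02, 4.11 and 2.55 times in cKO replicates 1, 2 and 3. The groups did not overlap in this ratio, whose log2 value differed by 0.62 (exact permutation p = 0.1, the smallest possible, and 0.3 after adjustment).

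Neither subunit works without the catalytic part of protein phosphatase 1, and 0 of its 3 genes passed the test (limma, with 1, Ppp1cb, at an unadjusted p under 0.05 and 0 by voom). Ppp1ca, the most abundant, lay between 162.4 and 194.5 FPKM and had a log2 fold change of 0.13, Ppp1cb had -0.19 and Ppp1cc had 0.23 (adjusted p = 0.293, 0.0889 and 0.237 by limma). Without cKO replicate 2, Ppp1cc was called higher at 0.37 (adjusted p = 0.0375).

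The Ppp1r15a gene lies at chr7:45522916-45526268 on the minus strand. The 80 bases before its start site (chr7:45526269-45526348, GRCm38.p6) are shown because they hold the cyclic AMP response element TGACGTCA, a binding motif of the ATF and CREB family, in capitals 12 bases before the start.
Ppp1r15a: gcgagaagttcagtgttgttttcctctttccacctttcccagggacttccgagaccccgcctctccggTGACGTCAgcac
This motif reads the same on both strands. It was in 1.79% of all promoter windows and in none of the windows of the other 6 matched genes. The composite motif of C/EBP and ATF proteins, TGATGNAAT on either strand, was in 0.965% of windows and in none of the 7 matched genes. Without a measurement of binding these are descriptions of sequence only.

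Eif2s1, the gene of eIF2alpha, lies at chr12:78861819-78887010. It measured 9.55, 9.28 and 9.001 FPKM in the controls and 17.4, 13.9 and 14.8 FPKM in the knockouts. The Ctrl hearts were as close as counting error allows (coefficient of variation 2.94%, against 3.20% for counting alone, and 11.8% against 2.47% in cKO) and the lowest cKO heart was well above them. The level rose 1.65-fold, from 9.28 ± 0.27 to 15.3 ± 1.81 FPKM, or by 0.66 on the log2 scale (SE 0.09, adjusted p = 0.00324), and the call held in all 15 alternative fits (adjusted p between 0.00148 and 0.0358).

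Of 8 genes of the other subunits of eIF2 and of its exchange factor eIF2B, 6 rose and 2 did not pass, with a median log2 fold change of 0.29. Eif2s2, the beta subunit, went from 14.5, 14.6 and 13.7 FPKM in Ctrl to 35.3, 33.7 and 33.8 FPKM in the knockouts (log2 fold change 1.21, adjusted p = 0.000184). The beta to alpha ratio, a value examined after the levels were seen, was 1.52 to 1.58 in the controls and 2.03 to 2.43 in the knockouts. The eIF2B genes Eif2b3, Eif2b4, Eif2b5 and Eif2b2 rose by smaller amounts (0.47, 0.32, 0.25 and 0.21), and Eif2b1 had 0.10 (adjusted p = 0.397). The calls of Eif2b2 and Eif2b5 were lost in 11 and 8 of 15 alternative fits. With the heart highest in Myl7 left out of each group, 1 of the 8, Eif2s2, stayed past the threshold.

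The gamma subunit is encoded by a pair of similar genes on the sex chromosomes, between which counting may share reads. Eif2s3x rose (log2 fold change 0.64, adjusted p = 0.0356) and measured 22.3, 35.3 and 22.04 FPKM in the knockouts, against 15.3 to 18.1 FPKM in Ctrl. Without cKO replicate 2 it was 0.42 (adjusted p = 0.0199), and its call was lost in 5 of 15 alternative fits. Eif2s3y had 0 reads in cKO replicate 2, which allows up to 0.0309 FPKM (3 reads, counting error only), and 10.7 to 15.9 FPKM in the other 5 hearts. The sum of both, also examined after the levels were seen, was 29.8, 32.97 and 26.4 FPKM in Ctrl and 38.2, 35.3 and 37.1 FPKM in cKO, where replicate 2 no longer stood out.

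Of 7 partners of eIF2 in scanning and initiation, Eif5, which triggers GTP hydrolysis by eIF2, was the only one to pass, at 0.57 (adjusted p = 0.00755). The median of the 7 was 0.04. The abundant start-codon factor Eif1 had a log2 fold change of -0.02 (adjusted p = 0.871).

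Oma1, the protease of the inner mitochondrial membrane, measured 12.1, 13.4 and 14.3 FPKM in the controls and 10.97, 10.7 and 11.3 FPKM in the knockouts. In the deposited FPKM the cKO hearts were below all Ctrl hearts and closer to each other. The library sizes that the FPKM imply set cKO lower against Ctrl than read totals would. The part of this in the difference of Oma1 was not tested. The mean fell by 17.3%, from 13.3 ± 1.11 to 10.99 ± 0.25 FPKM, which is -0.25 on the log2 scale (SE 0.08, adjusted p = 0.0499). The call rests on the threshold: it was kept in 2 of 15 alternative fits, and the log2 fold change was -0.17 (adjusted p = 0.159) when mitochondrial DNA genes were left out of the scaling. The gene lies at chr4:103313812-103371868, on another chromosome than the deleted Mrps5.

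Among 11 other proteases and scaffold proteins of the mitochondrion, 2 rose, 2 fell and 7 did not pass, while 16.3% of all tested genes were called higher and 17.0% lower. Lonp1, the main protease of the matrix, measured 56.7, 55.2 and 52.8 FPKM in the controls and 231.8, 166.3 and 207.7 FPKM in the knockouts (log2 fold change 1.85, adjusted p = 0.000415), and Htra2 of the intermembrane space rose by 0.70. Opa1, the fusion protein that OMA1 cleaves, fell by 0.40 on the log2 scale (adjusted p = 0.0168), and Spg7, an inner membrane protease, fell by 0.39 (adjusted p = 0.0109). Yme1l1, the protease that acts beside OMA1 on OPA1, had 0.04 (adjusted p = 0.703). Without the heart highest in Myl7 in each group, 2 of the 11 were called higher and 0 lower.

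**Figure D4:**
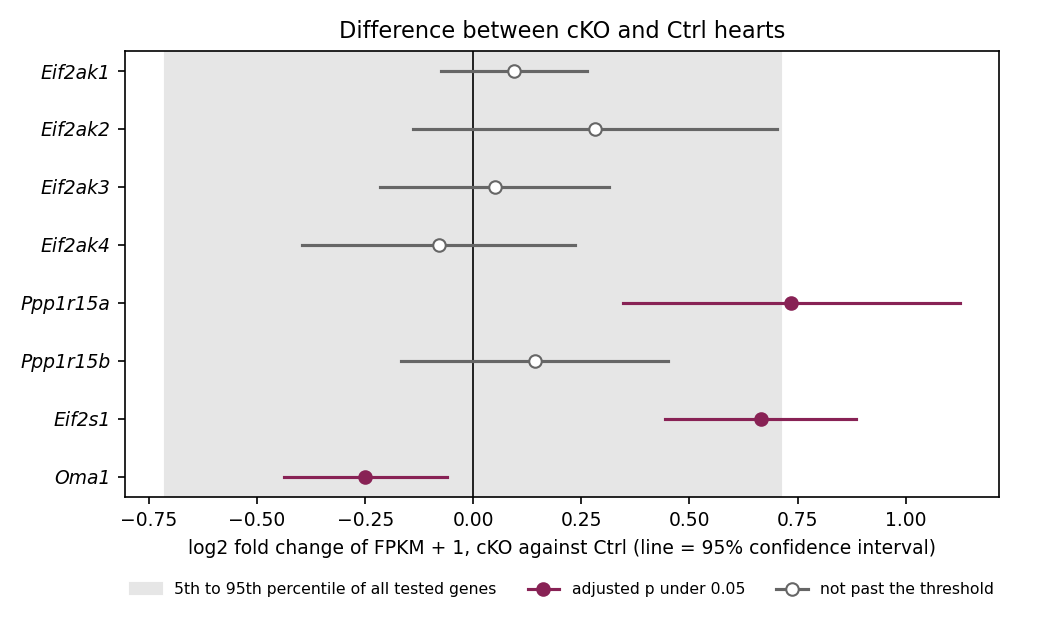
Log2 fold change of FPKM + 1 between cKO and Ctrl hearts for the 8 genes, with 95% confidence intervals as lines. Filled points passed the test. The grey band holds the 5th to 95th percentile of all tested genes, -0.71 to 0.71. The interval of Oma1, -0.44 to -0.06, ends closest to 0 of the 3 called genes.

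Of 12 transcripts, those of ATF4 and of genes it is known to induce, 8 rose and 4 did not pass, with a median log2 fold change of 1.38 over the list. Asns, asparagine synthetase, went from 1.23 to 2.49 FPKM in Ctrl to 61.7 to 72.4 FPKM in cKO (log2 fold change 4.68, adjusted p = 8.7e-05), Trib3 had 2.92, Atf5 2.76, Atf4 itself 1.43, Sesn2 1.39, Eif4ebp1 1.38, Atf3 1.36 and Nupr1 0.85. Ddit3 (1.66, adjusted p = 0.0699), Chac1 (1.37), Cebpb (-0.04) and Ddit4 (-0.70) did not pass. Without cKO replicate 2, Ddit3 was called higher at 0.94 (adjusted p = 0.0487) and the call of Sesn2 was lost at 1.10 (adjusted p = 0.0626), as it was in 7 of 15 alternative fits. Without cKO replicate 1, Ddit3 (2.27, adjusted p = 0.0183) and Chac1 (2.10, adjusted p = 0.014) were called higher and Ddit4 lower (-0.99, adjusted p = 0.0445). Ddit3 is listed in 2 rows, and the value is of the one with reads. Without the heart highest in Myl7 in each group, 4 of the 12 stayed past the threshold.

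The cKO hearts were not alike in this list, and Ppp1r15a followed one part of it. In cKO replicate 1, Ppp1r15a was lowest of the 3, and so were Atf4 (66.2, 152.9 and 125.2 FPKM in replicates 1, 2 and 3), Trib3 (4.75, 36.2 and 28.8 FPKM) and Ddit3 (10.5, 71.0 and 22.3 FPKM). Highest for each of these genes was cKO replicate 2, the heart that differed in Xist and Y-linked expression. Atf5 and Asns had another order, with Asns at 72.4, 63.6 and 61.7 FPKM and Atf5 at 231.2, 175.4 and 232.4 FPKM. Eif2s1, like Asns, was highest in replicate 1. These orders among 3 hearts were noticed in the values and were not tested.

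Of 8 genes of heme metabolism, which HRI senses through heme itself, 1 was called higher and 2 lower. The share called was close to the 33.3% of all tested genes. Hmox1, the enzyme that breaks heme down, measured 9.14, 5.79 and 8.66 FPKM in the controls and 32.1, 18.3 and 21.5 FPKM in the knockouts (log2 fold change 1.48, adjusted p = 0.00452). Of the 7 genes of synthesis, Alad fell by 0.60 and Urod by 0.29 on the log2 scale (adjusted p = 0.00552 and 0.0175), and the other 5, including the rate-limiting Alas1 at 0.07, did not pass. The call of Urod was lost in 4 of 15 alternative fits. Without the heart highest in Myl7 in each group, 1 gene of the 8 was called higher and 0 lower.

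**Figure D5:**
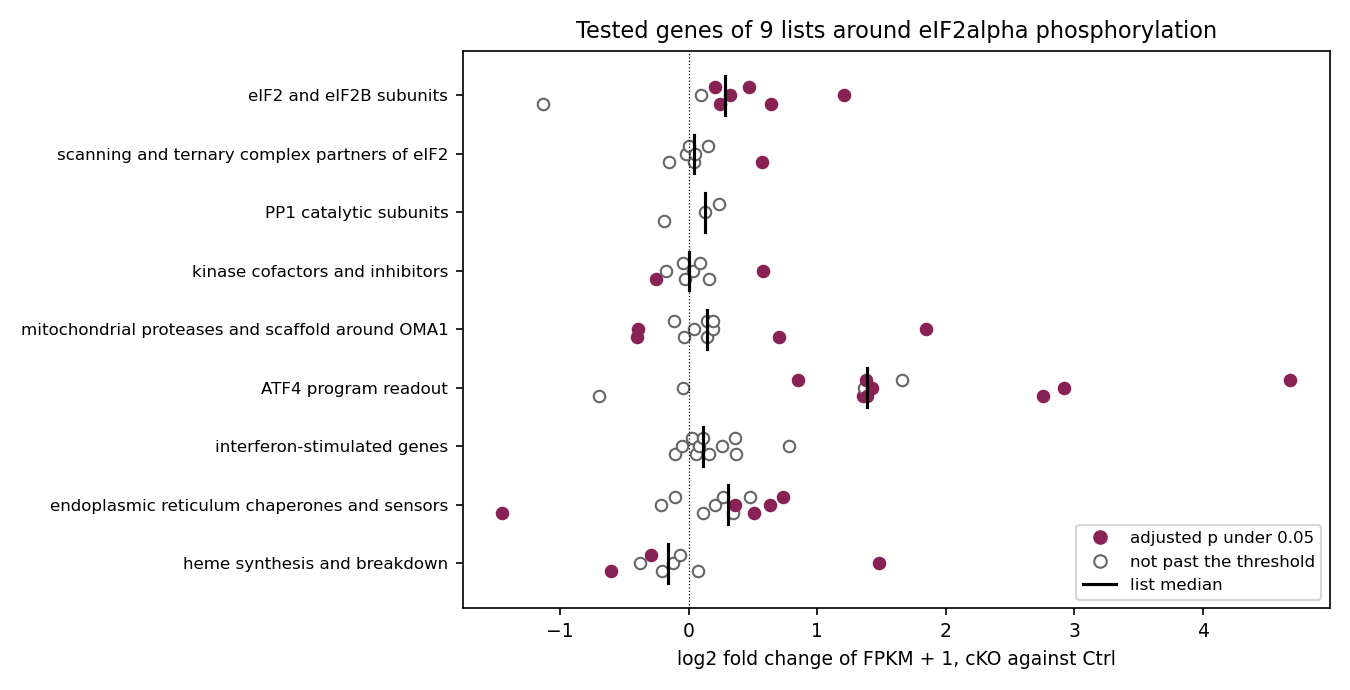
Log2 fold change between cKO and Ctrl of the tested genes of 9 lists, 1 point per gene, filled where the gene passed the test, with the list median as a vertical line. The ATF4 list has the highest median, 1.38, and the medians of the other lists lie between -0.16 and 0.30.

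Ordered by level per gene length, the Ctrl hearts ran from Oma1 (13.3 FPKM) over Ppp1r15a (11.2), Eif2s1 (9.28), Eif2ak1 (6.54), Ppp1r15b (5.43), Eif2ak2 (2.16) and Eif2ak3 (1.62) to Eif2ak4 (1.10). Neighbours overlapped between hearts for Oma1 and Ppp1r15a and for Ppp1r15a and Eif2s1. In cKO hearts Ppp1r15a (19.4 FPKM) and Eif2s1 (15.3) stood above Oma1 (10.99), and the ranges of Ppp1r15a and Eif2s1 and those of Eif2ak1 and Ppp1r15b overlapped. Eif2ak2 lies at chr17:78852564-78882573, Eif2ak3 at chr6:70844515-70905245, Ppp1r15b at chr1:133131143-133139783 and Eif2ak4 at chr2:118388618-118475234, on the same chromosome as Mrps5. Over the 6 hearts Ppp1r15a was above 80.3% of the tested genes in mean FPKM, and Eif2ak4 was above 14.4%.

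The genes most like the 3 that changed were sought among 5349 protein-coding genes averaging 5 FPKM or more, by Pearson's r of log2(FPKM + 1) over the 6 hearts, as a description without a test. For Ppp1r15a they were Hsf1 and Sf3a2 (r = 0.993 for both). For Eif2s1 they were Cct2 and Kpnb1 (r = 0.999 for both), and 637 genes exceeded 0.95. For Oma1 they were Fnip1 (r = 0.993) and Fam160a1 (r = 0.991). With 6 hearts in 2 groups, any gene that differs evenly between the groups gives a high r.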

How the data were processed

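The authors prepared poly-A selected libraries from heart RNA, aligned the reads with HISAT2 (2.0.5), counted them per gene with featureCounts (1.5.0-p3) and deposited FPKM values with 1 column per heart. Their own test, on read counts, was not used here. The gene length, another deposited column that the authors used for FPKM, was taken as given. The submitters' notes name the build mm9, yet all 54409 identifiers shared with GENCODE M21 shared its chromosomes and 53499 of them its exact start and end, so coordinates are those of the table, on GRCm38. Multireads and strand in counting are not given in the sources used here.

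Group and replicate came from the sample titles, and columns were matched by name. No pair of hearts of the same group agreed within sampling noise, and pairs across the groups were not compared. FPKM times gene length was a whole number of reads for 100% of values (tolerance 0.01 read). Limma (3.58.1, in R 4.3.3, eBayes with trend, two-sided) was fitted to log2(FPKM + 1) of the 12944 genes averaging 0.5 FPKM or more, 3 Ctrl against 3 cKO without covariates, and p-values were adjusted by the Benjamini-Hochberg method over these genes. Fold changes on this scale understate changes of low genes. Shares and ratios were compared by exact permutation tests. The scripts were tested on simulated data. The 8 genes and the gene lists were chosen with earlier results of these data known, so lists are described by counts and medians. All 8 genes were named, and list genes by the extreme calls of each list or, in lists of up to 12, gene by gene.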

Additional observations from a re-analysis of the deposited data

How the results depend on the processing

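Alternatives were another pseudocount (0.1), no filter or one at 1 FPKM, scaling by median of ratios, scaling without genes of the mitochondrial DNA, eBayes without trend, voom on the recovered reads, the replicate number as a block, and leaving out each heart in turn. The fit without the hearts highest in Myl7 was chosen after seeing the data. Voom used the library sizes that the FPKM imply, and no alternative used the read totals.

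Eif2s1 and Mrps5 kept direction and call in all 15. Oma1 was called again only with the 1 FPKM filter and without Ctrl replicate 1. Its log2 fold change (adjusted p in brackets) was -0.25 without trend (0.0559) and without a filter (0.0784), -0.22 with median-of-ratios scaling (0.0687), -0.27 with pseudocount 0.1 (0.0508), -0.17 without mitochondrial DNA genes (0.159), -0.27 with voom (0.0551), -0.33 without the hearts highest in Myl7 (0.0975) and from -0.31 to -0.20 without single hearts. Ppp1r15a had 0.76 without the hearts highest in Myl7. Eif2ak3 ranged from -0.034 to 0.13 without single hearts.

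Voom called 2169 genes higher and 2334 lower. Without single hearts, 1400 to 1993 genes were higher and 1434 to 2006 lower, lowest without Ctrl replicates 3 and 2, and 994 and 1024 without the hearts highest in Myl7.

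Same-numbered hearts did not deviate together (correlations -0.06, 0.17 and -0.01). No pairing by number was visible, although weak correlations of this kind cannot exclude one. With the replicate block 1874 genes were higher and 1982 lower, and Oma1 had -0.25 (adjusted p = 0.0739). The block changed no other call among the 8 genes.

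Among 58 other named genes, 20 of the 35 called ones lost the call in at least 1 alternative and none of these turned direction, and 11 of the 23 others were called in at least 1. Direction turned for 10 of those 23. Without single hearts, log2 fold changes ranged from -0.42 to 1.43 for Irf7, from -0.26 to 0.58 for Isg15, from -0.20 to 0.72 for Ifit1, from -0.53 to 0.36 for Ifit3, from -0.34 to 0.43 for Usp18 and from -0.066 to 0.20 for Adar, each lowest without cKO replicate 2, from -0.22 to 0.25 for Cebpb, from -0.25 to 0.0043 for Hspa5, from -0.066 to 0.048 for Eif1 and from -0.093 to 0.19 for Alas1. Eif1 had 0.0053 with median-of-ratios scaling, and without mitochondrial DNA genes Eif1 had 0.067 and Cebpb 0.046. Reads limit Eif2ak4 most. Several of the 6 within-heart measures moved by more than the SD of the Ctrl hearts without cKO replicate 2. The difference in the share of Eif2ak2 went from 3.78 to 0.58 percentage points and that of Eif2ak1 from -1.34 to 1.62. The difference in the log2 ratio of Ppp1r15a to Ppp1r15b went from 0.62 to 0.43, and that of the kinases to Eif2s1 from -0.58 to -0.71. The differences in the shares of Eif2ak1 and Eif2ak3 changed sign in some alternatives.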

Other observations

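Markers of the other cell types of the heart were measured beside the 8 genes. Of 6 fibroblast genes, Col3a1 and Col1a1, the fibrillar collagens, rose (log2 fold changes 1.57 and 0.82, adjusted p = 0.00328 and 0.0208), Dcn, a matrix proteoglycan, fell by 0.59 on the log2 scale (adjusted p = 0.0185), and 3 did not pass. Of the 3 tested genes of smooth muscle and pericytes, Acta2 rose (0.89, adjusted p = 0.0453) and the pericyte gene Rgs5 fell from 117.8, 119.3 and 133.3 FPKM in the controls to 53.4, 55.6 and 65.7 FPKM in the knockouts (log2 fold change -1.07, adjusted p = 0.00113). None of 5 macrophage genes and none of 5 atrial genes passed (limma; 0 at an unadjusted p under 0.05 and 0 by voom), with median log2 fold changes of -0.12 and 0.75. Without cKO replicate 2 the call of Acta2 was lost (0.62, adjusted p = 0.0753). Without the heart highest in Myl7 in each group, the call of Dcn was lost (-0.70, adjusted p = 0.0611) and Nppa, the gene of atrial natriuretic peptide, was called higher (2.57, adjusted p = 0.0271). The calls of Acta2, Col1a1 and Dcn were lost in 6, 5 and 2 of 15 alternative fits.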
